A study of Mus musculus with 12 samples.

Results

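Wwtr1, Yap1, the 4 TEAD genes and 4 of their best known targets were followed through 12 RNA sequencing libraries of mouse embryonic fibroblasts. The 10 genes are the coactivators Wwtr1 and Yap1, the DNA-binding factors Tead1, Tead2, Tead3 and Tead4, and the target genes Ctgf (also Ccn2), Cyr61 (also Ccn1), Ankrd1 and Amotl2. They were taken by symbol from 48709 Ensembl gene IDs, each symbol matched 1 ID, and all 10 passed the filter on low counts. Wwtr1 is widely called TAZ, and it is a different gene from tafazzin (Taz), which the label TAZKo refers to. The cells are C57BL/6 fibroblasts in 4 groups of 3 samples. They are isogenic wild-type (WT) cells in normoxia, WT cells after 24 hours in a hypoxia workstation, and cells lacking tafazzin (TAZKo) in each of those conditions. All were grown in DMEM with serum. The study asks how loss of tafazzin, an enzyme of mitochondria that remodels cardiolipin, alters the response to low oxygen. The oxygen level and how the knockout was made are not given in the sources used here, nor whether the samples of a group were separate cultures, so p-values measure the spread between these samples, which may be technical.

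YAP and TAZ (the proteins of Yap1 and Wwtr1) are the coactivators at the end of the Hippo pathway. When the kinases Lats1 and Lats2 are active they phosphorylate both proteins, which then stay in the cytoplasm or are degraded. When the kinases are inactive, as in spread, stretched or sparse cells, both enter the nucleus and bind TEAD factors on their target genes. Regulation is therefore largely on the proteins, and counts of transcripts do not show where the proteins are. In fibroblasts the pathway is known for its answer to matrix stiffness and for driving secreted matrix proteins such as the product of Ctgf.

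Total counts ran from 21039451 to 31204510 per library. Levels are CPM (counts relative to the library total, scaled by the TMM method of edgeR). The floor of detection, 3 counts, was worth 0.0961 to 0.143 CPM before scaling. It covers counting error only, since PCR copies of a molecule cannot be recognised. Taz was not reduced in the libraries labelled TAZKo, at 42.2 ± 3.18 CPM (SD, n = 3) in normoxia against 34.6 ± 2.92 in WT, and 33.8 ± 1.15 in hypoxia against 25.1 ± 1.49. Its log2 difference was 0.29 and 0.43 (edgeR adjusted p = 0.0139 and 0.00112). Genotype directions therefore rest on the labels. Hypoxia was visible in Vegfa, an angiogenic factor induced by low oxygen, which rose by a log2 change of 2.71 in WT and 1.44 in TAZKo (edgeR adjusted p = 8.37e-11 and 4.25e-08). Slc2a1, the other check of hypoxia, rose by 2.41 in WT and 2.46 in TAZKo (edgeR adjusted p = 1.17e-10 and 1.36e-10). The responses of Vegfa differed by -1.27 (TAZKo minus WT, edgeR adjusted p = 0.000241). Those of Slc2a1 differed by 0.05 (edgeR adjusted p = 0.878). In normoxia TAZKo differed from WT by 1.03 in Vegfa and -0.31 in Slc2a1 (edgeR adjusted p = 1.93e-06 and 0.0139). Of 10 fibroblast markers 9 exceeded 3 counts in some library, with Fn1 highest, while Lum had at most 2 counts and Thy1 at most 8. Col1a2 was also low, at 1.51 to 5.93 CPM, where Col1a1 stood at 1140 to 4130 CPM. The epithelial markers Epcam and Cdh1 reached at most 17 and 8 counts, the immune marker Ptprc 1 count, with Adgre1 at 0 and Cd68 at up to 218 counts, the endothelial marker Cdh5 2 counts, and the neural markers Sox2 and Sox10 1 and 2 counts. More than 3 counts in some library were also found for 5 of 6 epithelial, 4 of 5 endothelial, 2 of 5 immune, 2 of 4 neural and 2 of 6 muscle markers. The highest of these were Krt19 with up to 12210 counts, Krt18 with 3678, Tubb3 with 1660 and Tek with 480. Summed levels of the epithelial, endothelial, immune, neural and muscle lists differed between groups all the same. For 6 epithelial markers, mostly Krt19 and Krt18, they spanned 226 to 292 CPM (WT normoxia), 150 to 166 CPM (TAZKo normoxia), 554 to 567 CPM (WT hypoxia) and 402 to 436 CPM (TAZKo hypoxia). For 5 endothelial markers, mostly Tek, they spanned 14.6 to 21.2 CPM in WT and 4.28 to 7.88 CPM in TAZKo. For 4 neural markers, mostly Tubb3, they spanned 22.1 to 61.1 CPM. For 5 immune markers, mostly Cd68, they were higher in every hypoxia library, with 3.11 to 3.63 CPM (WT) and 3.64 to 4.42 CPM (TAZKo) under normoxia against 6.85 to 8.08 CPM and 6.09 to 7.68 CPM. The muscle list is given beside Ankrd1. The part of these shifts in the results was not tested. WT normoxia sample 1 stood apart from all other libraries on the third principal component (35.7, against -13.4 to 10.5), so results were also computed without it. Each of the 25 calls made for the 10 genes held without it, and only that of Tead2 in normoxia moved by more than 1.5 times.

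The coactivators responded to hypoxia in both genotypes, but they differed in how they related to genotype. Wwtr1 (ENSMUSG00000027803, protein-coding, GRCm38 chromosome 3 from 57455649 to 57575910, minus strand) stood at 169, 216 and 232 CPM in WT normoxia and at 181, 215 and 222 CPM in TAZKo normoxia. In hypoxia it stood at 297, 304 and 299 CPM in WT and at 262, 291 and 265 CPM in TAZKo. Every hypoxia library lay above every normoxia library, and the normoxia groups overlapped. The rise was 0.54 on the log2 scale in WT (SE 0.103, edgeR adjusted p = 0.000624), which is 1.46-fold. It was 0.4 in TAZKo (SE 0.103, edgeR adjusted p = 0.00607), which is 1.32-fold, and it missed the threshold without TAZKo normoxia sample 1 (log2 change 0.28, edgeR adjusted p = 0.0527). The genotypes did not differ past the threshold in Wwtr1. The log2 difference of TAZKo from WT was 0 under normoxia (edgeR adjusted p = 0.999). Under hypoxia it was -0.14 (SE 0.103, edgeR adjusted p = 0.337), although the 3 TAZKo hypoxia values all lay below the 3 WT hypoxia values. Counts of Wwtr1 ran from 3831 to 8405 per library.

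Yap1 (ENSMUSG00000053110, chromosome 9 from 7931999 to 8004596, minus strand), the paralogous coactivator, was lower in the libraries labelled TAZKo in both conditions. It stood at 143, 164 and 162 CPM in WT normoxia and at 100, 110 and 111 CPM in TAZKo normoxia. In hypoxia it stood at 200, 200 and 201 CPM in WT and at 125, 139 and 131 CPM in TAZKo. No 2 groups overlapped, and the order from lowest to highest was TAZKo normoxia, TAZKo hypoxia, WT normoxia and WT hypoxia. TAZKo differed from WT by -0.54 under normoxia and by -0.61 under hypoxia, with SE of 0.0676 and 0.0674 (edgeR adjusted p = 4.22e-05 and 1.56e-05). Hypoxia raised Yap1 by 0.36 in WT (edgeR adjusted p = 0.000547) and by 0.3 in TAZKo (edgeR adjusted p = 0.00294). The responses of the genotypes did not differ past the threshold in Yap1 (-0.06, SE 0.0952) or in Wwtr1 (-0.14, SE 0.146), with edgeR adjusted p = 0.798 and 0.695.

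**Figure D1:**
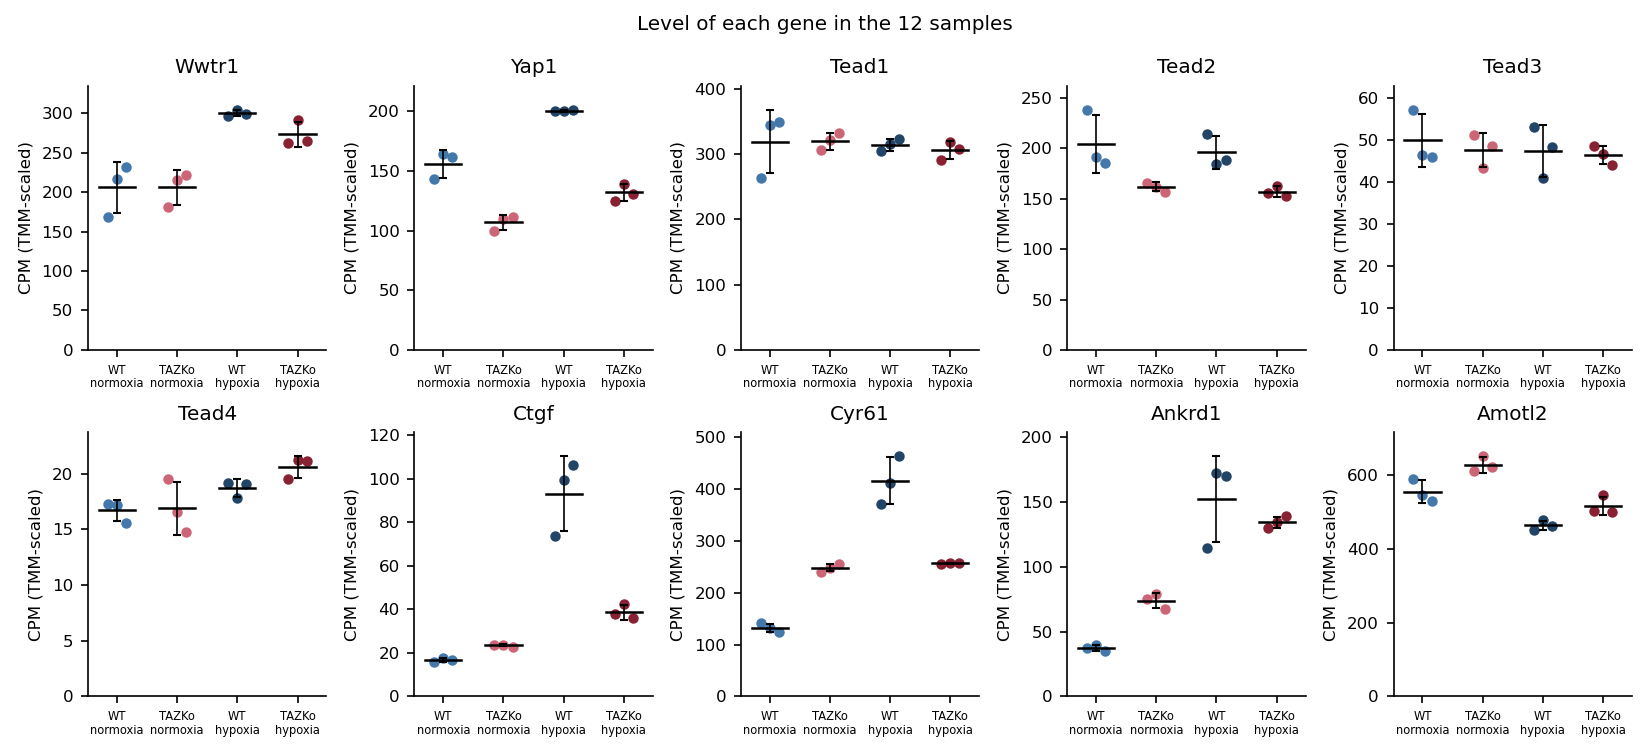
Level of each of the 10 genes (y axis, TMM-scaled CPM from 0) in the 4 groups (x axis). Points are samples 1 to 3 from left to right, horizontal lines are means and bars are SD (n = 3). Ctgf, Cyr61 and Ankrd1 are lowest in WT normoxia and have their highest mean in WT hypoxia, while Tead1 and Tead3 overlap across all 4 groups.

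Counts were divided by the length of each gene's merged exons to compare genes with each other (RPKM, which is CPM per kilobase). The length merges the exons of all annotated transcripts, so these levels depend on the annotation. On this scale Wwtr1 was at 43.1 ± 6.82 RPKM (SD, n = 3) in WT normoxia and Yap1 at 16.9 ± 1.26. The ratio of Wwtr1 to Yap1 was 2.3, 2.55 and 2.78 in WT normoxia and 3.51, 3.77 and 3.87 in TAZKo normoxia. In hypoxia it was 2.88, 2.95 and 2.88 in WT and 4.05, 4.05 and 3.94 in TAZKo. The ratio was thus higher in every TAZKo library than in every WT library, and no 2 groups overlapped in it. The ratio was also higher under hypoxia than under normoxia within each genotype, while the levels of both genes were higher there.

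The TEAD factors bring YAP and TAZ to DNA, since neither coactivator binds DNA by itself. Tead2 had the highest level per length of the 4, at 42.7 ± 6.03 RPKM in WT normoxia, followed by Tead1 (23.5 ± 3.58), Tead3 (7.44 ± 0.941) and Tead4 (4.64 ± 0.269). Of the summed RPKM of the 4 genes, Tead2 made up 54.4% ± 5.1 in WT and 48.8% ± 0.882 in TAZKo under normoxia (SD, n = 3). Under hypoxia it made up 53.5% ± 1.86 and 48.3% ± 0.611. Its share was lower in each TAZKo group than in the WT group of the same condition, with no overlap of samples.

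**Figure D2:**
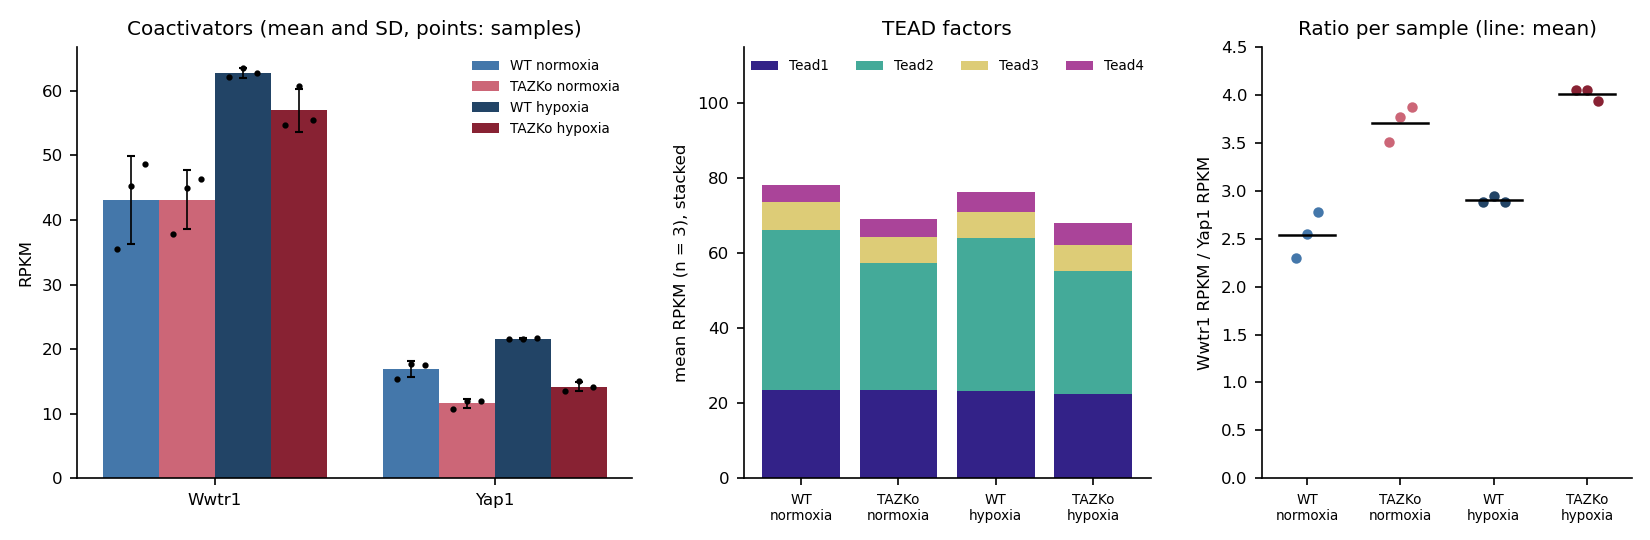
Levels per kilobase of merged exons. Left, RPKM of Wwtr1 and Yap1 by group (bars, means; error bars, SD; points, 3 samples); middle, mean RPKM of Tead1 to Tead4 stacked by group; right, the ratio of Wwtr1 to Yap1 RPKM in each sample with the group mean as a line. The ratio lies between 2.3 and 2.95 in WT libraries and between 3.51 and 4.05 in TAZKo libraries.

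Tead2 (ENSMUSG00000030796, chromosome 7 from 45215753 to 45233644) was the TEAD gene that differed by genotype. Its values were 238, 191 and 185 CPM in WT normoxia and 166, 162 and 157 CPM in TAZKo normoxia. In hypoxia they were 214, 184 and 188 CPM in WT and 156, 163 and 153 CPM in TAZKo. TAZKo lay below WT by a log2 difference of -0.34 under normoxia and -0.31 under hypoxia, with SE of 0.0885 and 0.0886 (edgeR adjusted p = 0.0101 and 0.0145). WT normoxia sample 1 was the highest of all 12 libraries in Tead2, and without it the normoxia difference was -0.22 (edgeR adjusted p = 0.0144). Hypoxia did not move Tead2 past the threshold in WT (-0.06, SE 0.0883) or in TAZKo (-0.04, SE 0.0885).

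Tead1 (ENSMUSG00000055320, chromosome 7 from 112679318 to 112906807) ranged from 263 CPM (WT normoxia sample 1) to 349 CPM (WT normoxia sample 3), and its 4 group means lay between 306 and 320 CPM. None of its 5 comparisons passed the threshold. Without WT normoxia sample 1 its hypoxia response in WT was -0.14 and passed (edgeR adjusted p = 0.0351). Tead3 (ENSMUSG00000002249, chromosome 17 from 28331671 to 28350817) lay between 40.9 and 57.2 CPM, all 4 groups overlapped, and no comparison passed the threshold. Tead4 (ENSMUSG00000030353, chromosome 6 from 128224288 to 128300823) stood at 19.5, 16.6 and 14.8 CPM in TAZKo normoxia and at 19.5, 21.2 and 21.1 CPM in TAZKo hypoxia. That rise, 0.29 on the log2 scale (SE 0.0945), passed the threshold (edgeR adjusted p = 0.0236), but not when counts were scaled by library size alone or when 1 of 4 TAZKo libraries (sample 2 or 3 of either condition) was left out (edgeR adjusted p of up to 0.179). Without TAZKo normoxia sample 3 the rise of Tead4 was 0.167. In WT, Tead4 stood at 17.3, 17.2 and 15.6 CPM in normoxia and 19.2, 17.8 and 19.1 CPM in hypoxia, a log2 change of 0.16 that did not pass (SE 0.096, edgeR adjusted p = 0.172).

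Ctgf, Cyr61 and Ankrd1 are the transcripts most often read as output of YAP and TAZ. All had their lowest mean in WT normoxia, were higher in TAZKo normoxia, and rose far more under hypoxia in WT than in TAZKo. Ctgf (ENSMUSG00000019997, chromosome 10 from 24595442 to 24598683, plus strand) encodes connective tissue growth factor, a secreted matrix-associated protein. It stood at 15.8, 17.7 and 16.7 CPM in WT normoxia and at 23.7, 23.7 and 22.9 CPM in TAZKo normoxia. In hypoxia it reached 73.6, 99.4 and 106 CPM in WT and 37.7, 42.5 and 35.9 CPM in TAZKo. None of the 4 groups overlapped. TAZKo was 1.4-fold above WT in normoxia (log2 difference 0.48, SE 0.121, edgeR adjusted p = 0.00811) and 2.4-fold below it in hypoxia (log2 difference -1.27, SE 0.113, edgeR adjusted p = 2.16e-06). Hypoxia raised Ctgf 5.55-fold in WT (2.47, SE 0.12, edgeR adjusted p = 1.87e-09) and 1.65-fold in TAZKo (0.73, SE 0.116, edgeR adjusted p = 0.000213). The responses differed by -1.75 (SE 0.165, edgeR adjusted p = 0.00016). The median gene on chromosome 10 was itself higher in TAZKo, by 0.31 in normoxia and 0.29 in hypoxia, and had a difference in response of -0.03. The part of that shift in the values of Ctgf was not tested. Exons of Ctgf overlap the opposite-strand transcript Gm15270 over 665 of 2861 bases, and the library kit does not keep strand. Gm15270 itself had 1 to 10 counts, against at least 358 for Ctgf.

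Cyr61 (ENSMUSG00000028195, chromosome 3 from 145646976 to 145649981, minus strand), which encodes another secreted matrix-associated protein of the same family, responded to hypoxia in WT and not detectably in TAZKo. It stood at 141, 132 and 124 CPM in WT normoxia and at 241, 248 and 255 CPM in TAZKo normoxia. In hypoxia it reached 372, 412 and 463 CPM in WT and 255, 257 and 258 CPM in TAZKo. The normoxia values of TAZKo lay above those of WT, and the hypoxia values of TAZKo lay below those of WT. The TAZKo groups did not overlap, though both hold a value that rounds to 255 CPM. Hypoxia raised Cyr61 3.14-fold in WT (log2 change 1.65, SE 0.0759, edgeR adjusted p = 1.09e-09). In TAZKo the change was 0.05 (SE 0.0738, edgeR adjusted p = 0.609), and it was -0.04 when scaled by library size alone. TAZKo lay 1.87-fold above WT under normoxia (0.9, SE 0.0748, edgeR adjusted p = 9.98e-07). Under hypoxia it lay 1.62-fold below WT (-0.7, SE 0.074, edgeR adjusted p = 1.07e-05). The responses differed by -1.6 (SE 0.105, edgeR adjusted p = 1.22e-05).

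Ankrd1 (ENSMUSG00000024803, chromosome 19 from 36111961 to 36120099, minus strand) encodes an ankyrin-repeat protein that is best known from stressed heart muscle and is a direct YAP target in many cells. It stood at 37, 39.8 and 35.1 CPM in WT normoxia and at 74.9, 78.8 and 67.5 CPM in TAZKo normoxia. In hypoxia it reached 114, 172 and 170 CPM in WT and 130, 134 and 139 CPM in TAZKo. WT hypoxia sample 1 lay below the 3 TAZKo hypoxia values and the other 2 WT samples lay above them. TAZKo was 1.98-fold above WT in normoxia (log2 difference 0.98, SE 0.128, edgeR adjusted p = 6.17e-05). In hypoxia the difference of -0.18 did not pass (SE 0.123, edgeR adjusted p = 0.297), but without WT hypoxia sample 1 it was -0.36 and passed (edgeR adjusted p = 0.00332). Hypoxia raised Ankrd1 4.08-fold in WT (2.03, SE 0.13, edgeR adjusted p = 3.04e-08) and 1.83-fold in TAZKo (0.87, SE 0.124, edgeR adjusted p = 8.54e-05), and the responses differed by -1.16 (SE 0.177, edgeR adjusted p = 0.00413). The median gene on chromosome 19 was lower in TAZKo, by -0.27 in normoxia and -0.28 in hypoxia. Summed over 6 muscle markers, levels under normoxia ran from 1.33 to 1.56 CPM in WT and 2.16 to 2.23 CPM in TAZKo. Under hypoxia they ran from 8.1 to 8.92 CPM and 11.2 to 12.7 CPM. Tnnt2 was the highest of these markers, and Myod1 was at 0 in all libraries. The part of these shifts in the Ankrd1 values was not tested. In RNA from bulk cultures, fewer cells of a type and less RNA per cell cannot be told apart.

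The 3 smaller responses in TAZKo were read within each sequencing lane named by the file names, since sample 2 changed lane with condition. In lane 4 the differences in response were -1.46 for Ctgf, -1.38 for Cyr61 and -0.81 for Ankrd1. In lane 5 they were -1.84, -1.8 and -1.26. The direction was the same in both lanes, on 1 or 2 samples a group and without a test. The comparisons share samples: a high TAZKo normoxia value enters both the normoxia difference and the difference in response.

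Amotl2 (ENSMUSG00000032531, chromosome 9 from 102716672 to 102733418, plus strand) encodes an angiomotin-like scaffold that binds YAP and TAZ and is also their target. It moved the other way under hypoxia. It stood at 588, 547 and 530 CPM in WT normoxia and at 610, 650 and 621 CPM in TAZKo normoxia. In hypoxia it stood at 452, 477 and 462 CPM in WT and at 503, 545 and 501 CPM in TAZKo. All hypoxia libraries of a genotype lay below all its normoxia libraries. The fall was -0.26 in WT (SE 0.0579, edgeR adjusted p = 0.00205) and -0.28 in TAZKo (SE 0.0579, edgeR adjusted p = 0.0015). The genotype difference of 0.18 in normoxia (edgeR adjusted p = 0.0334) was lost in 16 of 21 alternative settings, with edgeR adjusted p up to 0.253. It was 0.109 without WT normoxia sample 3 and 0.113 without TAZKo normoxia sample 2. The 0.16 in hypoxia did not pass (edgeR adjusted p = 0.0546).

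**Figure D3:**
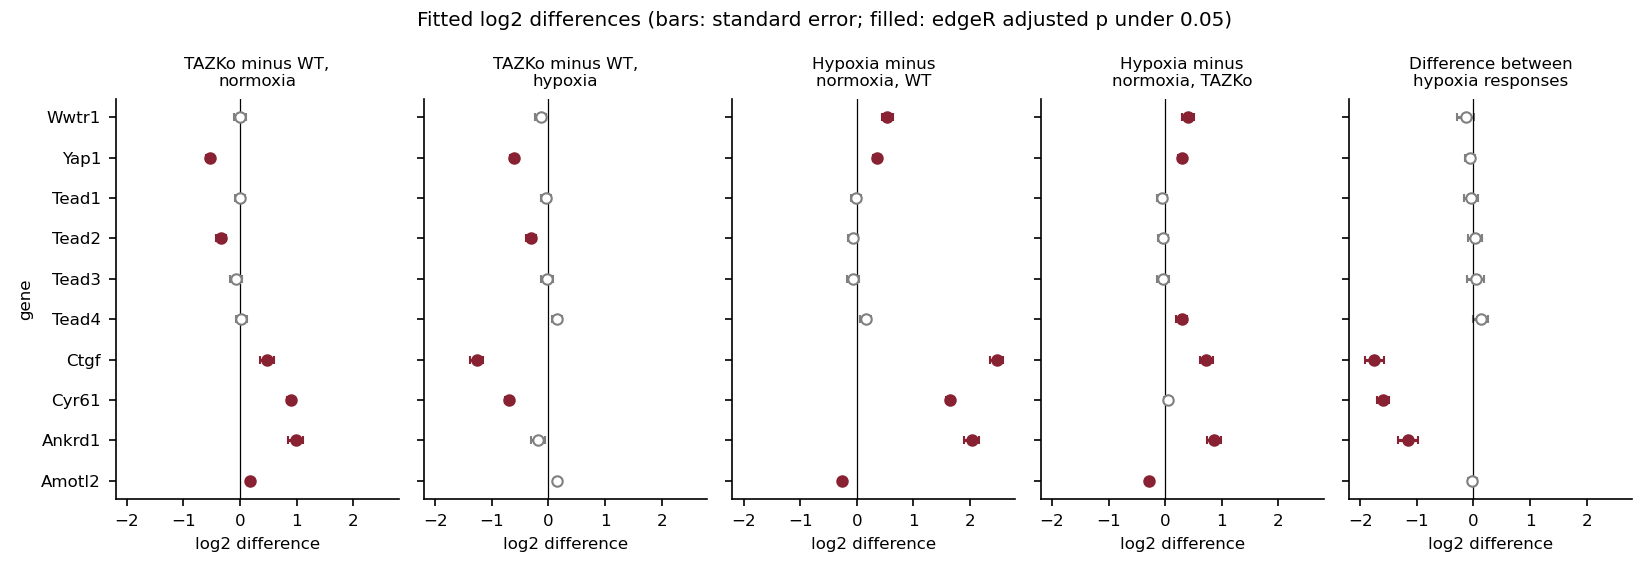
Fitted log2 differences (x axis) of the 10 genes (y axis) in the 5 comparisons, with bars for the standard error. Filled points passed an edgeR adjusted p of 0.05. In the rightmost panel Ctgf (-1.75), Cyr61 (-1.6) and Ankrd1 (-1.16) are the only filled points.

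Promoter windows show what these targets share outside the counts. RefSeq (GRCm38.p6) gave a window for 7 of the 10 genes, with 10 start sites. Ctgf, Tead1 and Tead4 had no entry. The 250 bases before the start site were searched on both strands for GGAATG, the core word bound by TEAD factors, and separately for ACGTG, a core word of hypoxia response elements. Windows are shown for the 3 targets with an entry, because they include responses to hypoxia in opposite directions. The letters run 5′ to 3′ on the gene's strand, and capitals mark GGAATG or its reverse complement CATTCC. They cover chr3:145649986-145650235 (minus strand), chr19:36119845-36120094 (minus strand) and chr9:102717554-102717803 (plus strand). The start sites are those of RefSeq, and the windows of Ankrd1 and Amotl2 lie within the gene coordinates given above, which are from GENCODE.
Cyr61: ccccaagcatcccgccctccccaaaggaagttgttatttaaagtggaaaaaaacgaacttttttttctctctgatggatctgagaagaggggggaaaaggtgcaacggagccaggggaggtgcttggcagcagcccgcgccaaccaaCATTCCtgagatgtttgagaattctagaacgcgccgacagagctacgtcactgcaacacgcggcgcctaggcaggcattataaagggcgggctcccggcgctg
Ankrd1: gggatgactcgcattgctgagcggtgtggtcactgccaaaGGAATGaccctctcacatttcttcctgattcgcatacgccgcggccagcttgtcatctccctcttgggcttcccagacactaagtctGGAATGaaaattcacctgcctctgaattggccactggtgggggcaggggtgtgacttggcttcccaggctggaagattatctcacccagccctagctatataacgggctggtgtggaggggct
Amotl2: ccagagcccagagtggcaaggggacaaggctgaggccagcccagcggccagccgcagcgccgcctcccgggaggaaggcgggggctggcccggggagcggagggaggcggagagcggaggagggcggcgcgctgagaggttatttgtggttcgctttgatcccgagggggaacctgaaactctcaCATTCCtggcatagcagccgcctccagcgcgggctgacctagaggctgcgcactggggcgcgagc
Cyr61 had 1 match 103 bases before its start site, Ankrd1 had 2 at 210 and 123 bases, and Amotl2 had 1 at 65 bases. Counted by gene, 6 of the 7 with a window held the word at 1 start site or more, Tead2 being the exception, against 14.4% of 27018 genes in the table. By start site 8 of the 10 windows held it, against 12.6% of all promoters. Tead3 had 3 of these windows, and Wwtr1 had 2 that overlap and share 1 match. A gene with more windows had more places for a match. ACGTG was found in 1 of the 7 genes, Yap1, where it lies in a CACGTG palindrome and so matches on both strands, against 18.5% of all genes. The matches of both words in Yap1 do not overlap. No other form of the hypoxia core, such as GCGTG, was searched for, so windows without ACGTG are not shown to lack such an element. A match is a description of letters, not a bound site, and windows with GGAATG included genes that rose under hypoxia (Cyr61, Ankrd1, Yap1, Wwtr1), fell (Amotl2) and did neither past the threshold (Tead3).

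Counted together, 6 of the 10 genes differed between the genotypes in normoxia, 4 higher and 2 lower in TAZKo, where 30.4% of 14408 tested genes differed, 15.6% higher and 14.9% lower (edgeR adjusted p under 0.05). In hypoxia 4 of 10 differed, all lower in TAZKo, against 32.8% of all genes, 15.8% higher and 16.9% lower. Under hypoxia 6 of 10 changed in WT (5 higher, 1 lower) against 51% of all genes, 26% higher and 25% lower. In TAZKo 6 of 10 changed (5 higher, 1 lower) against 43.8%, 22.2% higher and 21.6% lower. The shares called in either direction under hypoxia are near those of all genes. The difference in response was called in 3 of 10, all lower in TAZKo, against 2.43% of all genes, 0.722% higher and 1.71% lower. The median log2 change under hypoxia was 0.26 for the 10 genes and 0.01 for all genes in WT, and 0.17 and -0.01 in TAZKo. The split of all calls moved with scaling. Under hypoxia in WT it was 3750 higher and 3605 lower, and 2966 and 4817 with library size alone, where the median of all genes went from 0.009 to -0.097. In TAZKo it was 3198 and 3111, and 2470 and 4393 with library size alone. For the difference in response it was 104 and 246, and 140 and 204 with upper quartile scaling. It turned to 400 higher and 327 lower without a filter, and to 415 and 296 without WT hypoxia sample 1.

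The wider pathway was read from a list of 30 Hippo genes (kinases, their scaffolds, upstream inputs and TEAD cofactors), of which 29 were tested and Dchs1, with at most 3 counts, was not. Under hypoxia 16 of the 29 rose and 4 fell in WT, where 51% of all genes were called, and without WT hypoxia sample 3 the calls were 13 in all. In TAZKo 12 rose and 5 fell, where 43.8% of all genes were called. The median log2 change was 0.23 and 0.2, against 0.01 and -0.01 for all genes. Rassf1, a scaffold that activates the kinases, rose by 1.45 in WT (21.7 ± 1.57 to 59.3 ± 3.27 CPM, SD, n = 3, edgeR adjusted p = 1.94e-09) and by 1.09 in TAZKo (edgeR adjusted p = 4.88e-08). Sav1, the scaffold of the kinases Stk3 and Stk4, rose by 0.87 in WT and by 0.72 in TAZKo (edgeR adjusted p = 8.02e-08 and 7.29e-07). The TEAD cofactor Vgll3 rose by 0.87 in WT and by 0.74 in TAZKo (edgeR adjusted p = 2.38e-05 and 0.000142). Fat4, an atypical cadherin upstream of the kinases, fell by 0.6 in WT and by 0.67 in TAZKo on the log2 scale (edgeR adjusted p = 0.000247 and 0.00014). Limd1, a protein that restrains the Lats kinases, changed by -0.32 and Taok2, an upstream kinase, by -0.19 in WT (edgeR adjusted p = 0.00051 and 0.0305). The change of Taok2 missed the threshold with lane as a covariate and, at -0.12, without WT normoxia sample 1 (edgeR adjusted p = 0.0517 and 0.0847), and it was -0.295 with library size alone. In TAZKo the change was -0.15 for Limd1 and -0.18 for Taok2 (edgeR adjusted p = 0.0595 and 0.0393). In TAZKo, Stk3 changed by -0.35 and Amot, an angiomotin scaffold, by -0.3 (edgeR adjusted p = 0.0459 and 0.00633). The call of Stk3 was lost in 6 of 21 alternatives. In WT the change was -0.25 for Stk3 and 0.02 for Amot (edgeR adjusted p = 0.131 and 0.885). None of Vgll3, Limd1, Taok2, Stk3 and Amot had a called difference in response.

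By genotype 2 of the 29 Hippo genes were higher and 4 lower in TAZKo normoxia, and 2 were higher and 6 lower in TAZKo hypoxia. Over all genes 30.4% and 32.8% were called. Without WT hypoxia sample 1 the normoxia calls in the list were 10. Frmd6, a FERM protein upstream of the kinases, stood at 40.3, 44.5 and 46.4 CPM in WT normoxia and at 70.5, 75.1 and 79 CPM in TAZKo normoxia. It reached 81.9, 88.8 and 82.9 CPM in WT hypoxia and 99.1, 108 and 101 CPM in TAZKo hypoxia. TAZKo lay above WT by 0.78 under normoxia and by 0.28 under hypoxia (edgeR adjusted p = 2.21e-06 and 0.00689). It was the 1 gene of this list with a called difference in response (-0.5, edgeR adjusted p = 0.0168), after a rise of 0.95 in WT and 0.45 in TAZKo, and that call was lost when 1 of 6 libraries was left out (edgeR adjusted p up to 0.0796). Lats1, the kinase that phosphorylates YAP and TAZ, was 0.53 higher in TAZKo normoxia (edgeR adjusted p = 0.00578), with 59.5, 89.2 and 84.2 CPM in WT against 102, 120 and 114 CPM. Lower in TAZKo normoxia were Wtip (-0.42), Ajuba (-0.24) and Amotl1 (-0.22), and in hypoxia Vgll3 (-0.44), Amotl1 (-0.38) and Stk38l (-0.35). Their edgeR adjusted p ran from 0.000536 for Amotl1 in hypoxia to 0.0221 for Amotl1 in normoxia. Ajuba missed the threshold with only the 6 samples compared (0.0657) and Stk38l without WT hypoxia sample 3 (0.0587). Fat1, a large atypical cadherin, was 0.15 higher in TAZKo hypoxia (edgeR adjusted p = 0.0454), a call lost in 12 of 21 alternatives. In the other condition the genotype difference was 0.26 for Lats1, -0.09 for Wtip, 0 for Ajuba, -0.31 for Vgll3, -0.07 for Stk38l and 0.05 for Fat1, none past the threshold. No difference in response was called for these 6 genes.

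A list of 18 further YAP and TAZ targets, the rest of a conserved signature known from other work, gave a mixed picture. Lats2 and Ptpn14 belong to this list and to the Hippo list, so their rises under hypoxia in both genotypes are counted in each. In WT 9 of 18 rose and 6 fell under hypoxia, where 51% of all genes were called. In TAZKo 9 rose and 2 fell, where 43.8% were called. The median change was 0.27 and 0.26, against 0.01 and -0.01 for all genes. The differences in response were called in 2 of 18, against 2.43% of all genes. Gadd45a, a stress-induced growth arrest gene, stood at 5.79, 6.45 and 6.95 CPM in WT normoxia and at 9.68, 11.5 and 10.7 CPM in TAZKo normoxia. It reached 27.2, 37.6 and 40.6 CPM in WT hypoxia and 27.4, 25.3 and 23.2 CPM in TAZKo hypoxia. It rose by 2.46 in WT and 1.25 in TAZKo (edgeR adjusted p = 1.12e-08 and 6.91e-06), a difference in response of -1.21 (SE 0.195, edgeR adjusted p = 0.00531). F3, which encodes tissue factor, rose by 1.1 in WT (18.9 ± 1.77 to 40.4 ± 6.05 CPM, SD, n = 3, edgeR adjusted p = 1.42e-06) and by 0.45 in TAZKo (edgeR adjusted p = 0.00289). F3 had a difference in response of -0.65 (SE 0.146, edgeR adjusted p = 0.0323) that was lost in 9 of 12 fits with 1 library left out (up to 0.126). Gadd45a (0.73) and F3 (0.53) were both higher in TAZKo normoxia (edgeR adjusted p = 0.0022 and 0.00184). In hypoxia Gadd45a was lower in TAZKo (-0.48, edgeR adjusted p = 0.01), with overlapping samples. F3 did not differ past the threshold there (-0.13, edgeR adjusted p = 0.377). The receptor tyrosine kinase Axl rose by 0.67 in WT and by 0.84 in TAZKo (edgeR adjusted p = 3.9e-07 and 6.94e-08), and the transcription factor Foxf2 by 0.66 and 0.79 (edgeR adjusted p = 0.000191 and 4.61e-05).

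**Figure D4:**
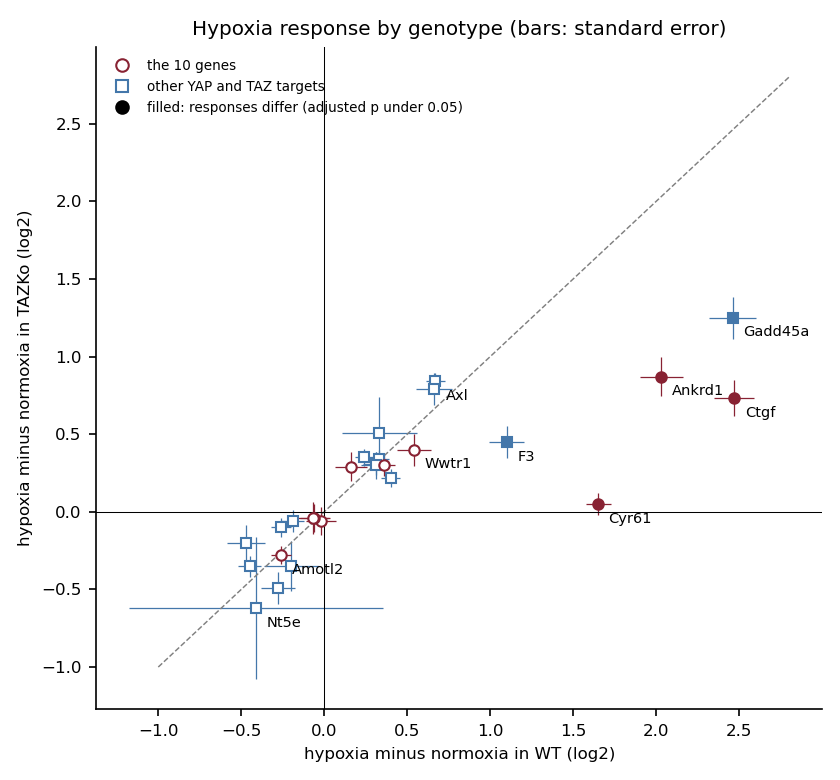
Hypoxia response (log2) in WT (x axis) against TAZKo (y axis) for the 10 genes (circles) and 17 further targets (squares; Igfbp3 is left out, being at 0 to 2 counts in TAZKo), with bars for the standard error and a dashed line of equal response. Filled symbols, Ctgf, Cyr61, Ankrd1, Gadd45a and F3, have responses that differ past an edgeR adjusted p of 0.05, and they lie below the line.

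By genotype 5 of these 18 targets were higher and 3 lower in TAZKo normoxia, where 15.6% and 14.9% of all genes were. In hypoxia 3 were higher and 5 lower, where 15.8% and 16.9% of all genes were, and without WT hypoxia sample 3 the calls were 5 in all. The targets called higher in normoxia include Nt5e, which had 2 to 24 counts per normoxia library and a group mean of at most 0.633 CPM. The medians were -0.06 and -0.01, also with Igfbp3 at its bound. Igfbp3, a secreted IGF-binding protein, had 335, 343 and 488 counts in WT normoxia against 2, 0 and 1 in TAZKo, and 298, 200 and 232 in WT hypoxia against 0 in all 3 TAZKo libraries. At a floor of 3 counts per library that is at least 91.3-fold lower in TAZKo hypoxia (edgeR adjusted p = 1.73e-07). Ccdc80, a secreted matrix protein, differed by -0.63 in normoxia and -0.53 in hypoxia (edgeR adjusted p = 9.83e-06 and 4.59e-05). Tgfb2, a TGF-beta ligand, differed by -0.56 and -0.76 (edgeR adjusted p = 0.00104 and 9.9e-05). Asap1, a regulator of small GTPases and the actin cytoskeleton, was higher in both conditions, by 0.3 and 0.41 (edgeR adjusted p = 0.00123 and 9.91e-05). Foxf2 was 0.39 higher in TAZKo hypoxia (edgeR adjusted p = 0.0112), which missed the threshold without WT hypoxia sample 2 or 3 (0.0577 and 0.0614), and 0.26 higher in normoxia (edgeR adjusted p = 0.0923). Crim1 was 0.25 higher in TAZKo normoxia and 0.24 higher in TAZKo hypoxia (edgeR adjusted p = 0.0424 and 0.0489). The second call of Crim1 was lost in 10 of 21 alternatives, with a value of 0.137 without WT hypoxia sample 1. Ccdc80 changed under hypoxia by -0.45 in WT and -0.35 in TAZKo (edgeR adjusted p = 8.38e-05 and 0.000886), and Tgfb2 by -0.28 in WT and -0.49 in TAZKo (edgeR adjusted p = 0.0345 and 0.00207). Nuak2, a kinase, changed by -0.47 in WT (edgeR adjusted p = 0.00363), and its value in TAZKo was -0.2 (edgeR adjusted p = 0.177). Igfbp3 changed by -0.57 in WT (edgeR adjusted p = 0.0269), a call lost in 3 of 12 fits with 1 library left out (up to 0.0793). Without WT hypoxia sample 1 the value for Igfbp3 was -0.919.

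Genes with the most similar profile were found by the root mean square difference of centred log2 CPM over the 12 samples, among 10318 genes with a mean of at least 5 CPM. Nearest to Wwtr1 were Map4k5 (0.05), Itgav (0.052), Pan3 (0.06), Arid2 (0.064) and Sf3b1 (0.065), where Wwtr1 itself deviated from its own mean by 0.274. Yap1 was at 0.274 from Wwtr1, place 3098 in that order. Nearest to Ctgf were Cubn (0.278), Cyp51 (0.295), Lss (0.3), Sqle (0.3) and Nsdhl (0.304), where Ctgf deviated from its own mean by 0.932. Among the 10 genes the nearest to Ctgf were Ankrd1 (0.44, place 83) and Cyr61 (0.456, place 101), and Amotl2 was the farthest (1.064, place 7818). These distances describe 12 libraries that share 4 groups, and carry no test.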

How the data were processed

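Read counts per gene were measured by RNA sequencing (TruSeq RNA v2 libraries, per the labels' protocols) in 12 samples, 4 groups of 3. The authors deposited 1 table of whole-number counts per sample, unnormalized as far as the values show. The submitters' processing notes name the build mm10. The aligner, the counting program and its handling of shared reads are not given in the sources used here. Of 48709 IDs, 48349 matched GENCODE M21 (GRCm38), which gave symbols, coordinates and exon lengths.

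Genes were filtered with filterByExpr of edgeR (14408 left), scaled by TMM and tested with glmQLFit and glmQLFTest of edgeR, its quasi-likelihood test, over all 12 samples (edgeR 4.0.16, limma 3.58.1, R 4.3.3). The model had 1 coefficient per group and no covariate. Adjusted p-values are Benjamini-Hochberg over all tested genes, with a threshold of 0.05, and the SE of a log2 difference is its size over the square root of F. In simulated counts for 14171 genes with 200 changed 2-fold in TAZKo hypoxia, 72% were recovered for the difference in response and 87.5% for TAZKo against WT in hypoxia. Total counts of 21039451 to 31204510 set the floor of 3 counts.

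The genes and lists were chosen with earlier results of these data known. Named genes were all 10, and per list and comparison up to 3 rises and 3 falls past the threshold with at least 1 CPM. Checks were Taz, Vegfa, Slc2a1 and markers. Other settings tried were scaling by library size alone, by upper quartiles or by the size factors of DESeq2 1.42.0, its Wald test, no filter or 5 CPM on average, the replicate number as a block, lane as a covariate, only the 6 samples compared, and each sample left out.

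Replicate numbers come from the titles. Deviations of same-numbered samples correlated at 0.354, 0.149 and 0.228 between the normoxia groups and at 0.368, 0.204 and 0.152 between the WT groups. There the numbers were taken to pair samples, but the main model did not use the pairing. A sample was closest to its own number in 3 of 3 cases between the normoxia groups and in 2 of 3 between the WT groups. In the other pairs of groups some correlations were under 0.1. No pair of replicates agreed within counting noise (mean chi-square per gene 2.92 to 44.1).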

Additional observations from a re-analysis of the deposited data

Results flagged for a closer look

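The response to hypoxia differed between the genotypes, by the interaction test of edgeR, in 3 of the 10 genes: Ctgf (-1.75), Cyr61 (-1.6) and Ankrd1 (-1.16). All 3 calls held in each of the 20 alternatives run, with values from -1.87 to -1.62 for Ctgf, -1.65 to -1.49 for Cyr61 and -1.31 to -1.04 for Ankrd1, and edgeR or DESeq2 adjusted p of at most 0.00196, 0.000299 and 0.0228. Of the listed pathway genes, Gadd45a (-1.21), F3 (-0.65) and Frmd6 (-0.5) differed in the same test. Gadd45a passed in all 12 fits with 1 library left out, Frmd6 in 6 and F3 in 3. All 6 values are log2 differences, TAZKo response minus WT response.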

How the results depend on the processing

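Of 50 comparisons (10 genes, 5 comparisons), 25 were called and 22 of those were called in every alternative. The exceptions were Amotl2 in normoxia, Wwtr1 and Tead4 under hypoxia in TAZKo. Over 1040 refits 957 kept direction and side of the threshold, 22 lost the call, 8 gained it (Amotl2 and Ankrd1 by genotype in hypoxia, Tead1 under hypoxia in WT) and 53 changed sign, all of values not past the threshold. The 48 results for named genes of the other lists were refitted in the same way, which was chosen after seeing the data. Of these 38 were called in every alternative and 0 changed sign.

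Sign changes outside the left-out fits were these. By genotype in normoxia, Wwtr1 was 0.00906 with library size alone, 0.00326 with the replicate block and 0.00186 with lane. Tead1 was -0.00916 with DESeq2 size factors, -0.0117 with upper quartile scaling, -0.00917 with DESeq2 and -0.0259 without a filter, and Tead4 -0.0121 without a filter. Under hypoxia in TAZKo, Tead2 was 0.000477 with lane and Cyr61 -0.0429 with library size alone. For the difference in response, Tead1 was 0.00821 without a filter, and Amotl2 0.0156 with upper quartile scaling and 0.0298 without a filter.

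With 1 library left out, values by genotype in normoxia ran from -0.12 to 0.0592 for Wwtr1, -0.12 to 0.0394 for Tead1, -0.16 to 0.0419 for Tead3 and -0.12 to 0.0782 for Tead4, and in hypoxia from -0.13 to 0.0447 for Tead3. Hypoxia responses ran from -0.19 to 0.0561 for Tead2 and -0.21 to 0.0323 for Tead3 in WT, and from -0.00442 to 0.05 for Cyr61 in TAZKo. Differences in response ran from -0.0872 to 0.0778 for Tead1, -0.0965 to 0.119 for Tead2, -0.0726 to 0.15 for Tead3 and -0.0652 to 0.0374 for Amotl2. The causes were not tested.

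The 10 genes' counts of calls stayed within 1.5 times in all settings. The Hippo list had 10 calls by genotype in normoxia with a mean of at least 5 CPM (6 as reported), and 6 to 10 with 1 library left out, 10 being without WT hypoxia sample 1. It had 13 to 19 under hypoxia in WT (20), 13 being without WT hypoxia sample 3, and 0 to 3 for the difference in response (1 as reported by edgeR, 6 at an unadjusted p under 0.05), 3 being without WT hypoxia sample 1. The target list had 5 to 9 by genotype in hypoxia (8), 5 being without WT hypoxia sample 3, and 1 to 2 for the difference in response (2). Over all genes the difference in response was called in 350, in 639 with the replicate block, 727 without a filter and 574 with DESeq2. With 1 library left out it was called in 174 (without TAZKo normoxia sample 2) to 711 (without WT hypoxia sample 1). The block changed no call of the 10 genes where the numbers pair samples. Elsewhere same-numbered deviations correlated at 0.0508 on average between the hypoxia groups and 0.0326 between the TAZKo groups, each sample was closest to its own number in 1 of 3 cases, and the block gained Amotl2 by genotype in hypoxia. Depth did not limit the 10 genes, the lowest of which had 358 counts.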

Other observations

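The samples numbered 1, which all carry lane 4, took the same place in every group for several of the genes. Sample 2 of WT normoxia and of TAZKo normoxia also carries lane 4. How often such places occur over all genes was not counted, and their cause was not tested. Sample 1 was the lowest of its group in 4 of 4 groups for Wwtr1 and Tead1 and in 3 of 4 for Yap1 and Cyr61, and the highest in 4 of 4 for Tead3 and in 3 of 4 for Tead2 and Tead4. For Tead1 and Tead2 the SD was largest in WT normoxia, where sample 1 had 263 CPM of Tead1 against 344 and 349, and 238 CPM of Tead2 against 191 and 185. Sample 1 of WT hypoxia was also the lowest of its group in Ctgf (73.6 against 99.4 and 106 CPM) and Ankrd1 (114 against 172 and 170 CPM).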
